A study of Mus musculus with 10 samples.

Results

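Collagen chain genes were followed in the hippocampus of Tshr-/- mice, which lack the receptor for thyroid-stimulating hormone, and of wild-type mice. Protein-coding genes of the deposited table were taken where the name was Col, a number, a and a number. Of 52636 genes, 45 met this pattern, and 44 of them encode a collagen chain. The remaining gene, Col4a3bp, encodes a ceramide transfer protein and is set apart. The 44 chain genes fall into 11 fibrillar, 6 basement membrane, 4 membrane, 2 multiplexin, 9 fibril-associated (FACIT), 6 beaded filament and 3 short-chain network genes, with Col7a1, Col26a1 and Col28a1 as others.

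RNA came from hippocampus of C57BL/6 mice at 3 months of age, as 5 libraries of genotype Tshr-/- and 5 of wild type. The labels call the libraries biological replicates but do not give the deleted part of Tshr, the sex, the number of mice per library or any hormone treatment, and the mice share 1 strain. Values are FPKM, fragments scaled to the length of the gene and to the size of the library, so that levels can be compared between genes. Libraries held 25744854 to 28332278 rebuilt reads in Tshr-/- and 23899650 to 33529811 in wild type. Tshr itself was near the limit of detection, with 0, 0, 0, 5 and 2 reads in Tshr-/- libraries 1 to 5, against 9, 12, 7, 2 and 2 in wild-type libraries 1 to 5, and the groups overlapped.

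Collagens are secreted or membrane proteins whose chains wind around each other into a helix. Fibrillar collagens such as type I build the fibres of connective tissue, which in the brain lies mainly in the meninges and the walls of larger vessels. Type IV collagens form the network of basement membranes around blood vessels. Membrane collagens span the plasma membrane and can be shed from the cell surface.

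The promoters of Col23a1, Col5a1 and Col6a2 are shown because these genes, with Col6a1, were highest in the same library and separated the genotypes without overlap. Each sequence is the 250 bases before the RefSeq start (GRCm38.p6, the same build as mm10), written 5′ to 3′ on the strand of the gene, with a GC box in capitals. The window of Col6a1 held annotated untranslated bases and is not shown.
Col23a1, chr11:51289670-51289919, plus strand: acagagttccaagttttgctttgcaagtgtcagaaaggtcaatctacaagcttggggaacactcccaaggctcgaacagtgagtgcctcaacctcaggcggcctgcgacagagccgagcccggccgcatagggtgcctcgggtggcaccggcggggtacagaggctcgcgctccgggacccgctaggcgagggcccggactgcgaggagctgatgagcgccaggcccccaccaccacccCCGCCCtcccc
Col5a1, chr2:27886175-27886424, plus strand: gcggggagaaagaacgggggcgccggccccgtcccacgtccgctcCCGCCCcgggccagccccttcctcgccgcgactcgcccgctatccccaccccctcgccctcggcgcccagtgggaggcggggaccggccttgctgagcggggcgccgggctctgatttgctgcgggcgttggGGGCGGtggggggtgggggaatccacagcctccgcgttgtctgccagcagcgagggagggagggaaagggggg
Col6a2, chr10:76623631-76623880, minus strand: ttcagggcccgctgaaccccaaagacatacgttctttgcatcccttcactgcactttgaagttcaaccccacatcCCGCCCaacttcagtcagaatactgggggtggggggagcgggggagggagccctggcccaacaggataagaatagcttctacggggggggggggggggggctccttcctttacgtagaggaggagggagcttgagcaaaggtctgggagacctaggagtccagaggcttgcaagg

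Motifs searched on both strands were the GC box GGGCGG, the CCAAT box CCAAT and the TATA box TATAAA, each counted also where it overlaps another. The Col23a1 window held 1 GC box, that of Col5a1 held 2 and the printed window of Col6a2 held 1, and none of these windows held CCAAT or TATAAA. A second RefSeq start of Col6a2 has a window with 3 GC boxes, which lies mostly in untranslated bases and is not shown. The set of RefSeq windows used here covered 35 of the 44 chain genes, with 38 windows in all. The other chain genes, among them Col9a3 and Col12a1, are not in the shares that follow. A GC box stood in 22 of the 38 windows (57.9%), against 32.7% of all 32851 promoter windows. For CCAAT the shares were 34.2% of the chain gene windows and 33.8% of all windows, and for TATAAA 13.2% and 12.4%. These matches describe letters in the window and no binding.

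The chain genes spanned low to moderate levels. A mean of at least 0.5 FPKM over all libraries, the minimum for a test, was reached by 22 of the 44, which are called measured here. Col4a2 and Col4a1, the paired chains of the vascular basement membrane, stood highest, followed by Col11a2, Col25a1, Col9a3 and Col6a1. Summed over the 44 genes, the level was 66.1 ± 9.96 FPKM in Tshr-/- and 49.9 ± 5.97 FPKM in wild type (SD, n = 5 each). Without Tshr-/- library 4 the Tshr-/- sum was 61.9 ± 3.50 FPKM (SD, n = 4). The sums overlapped with and without that library, because wild-type library 4 (59.7 FPKM) lay above Tshr-/- library 1 (58.3 FPKM). Lowest was Col10a1, a collagen of growth cartilage, with 8 reads over all Tshr-/- libraries and 7 over all wild-type libraries. It is listed at 0 in Tshr-/- libraries 3 and 5, which at the level of 3 reads allows up to 0.0364 and 0.0346 FPKM, counting error alone considered.

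**Figure D1:**
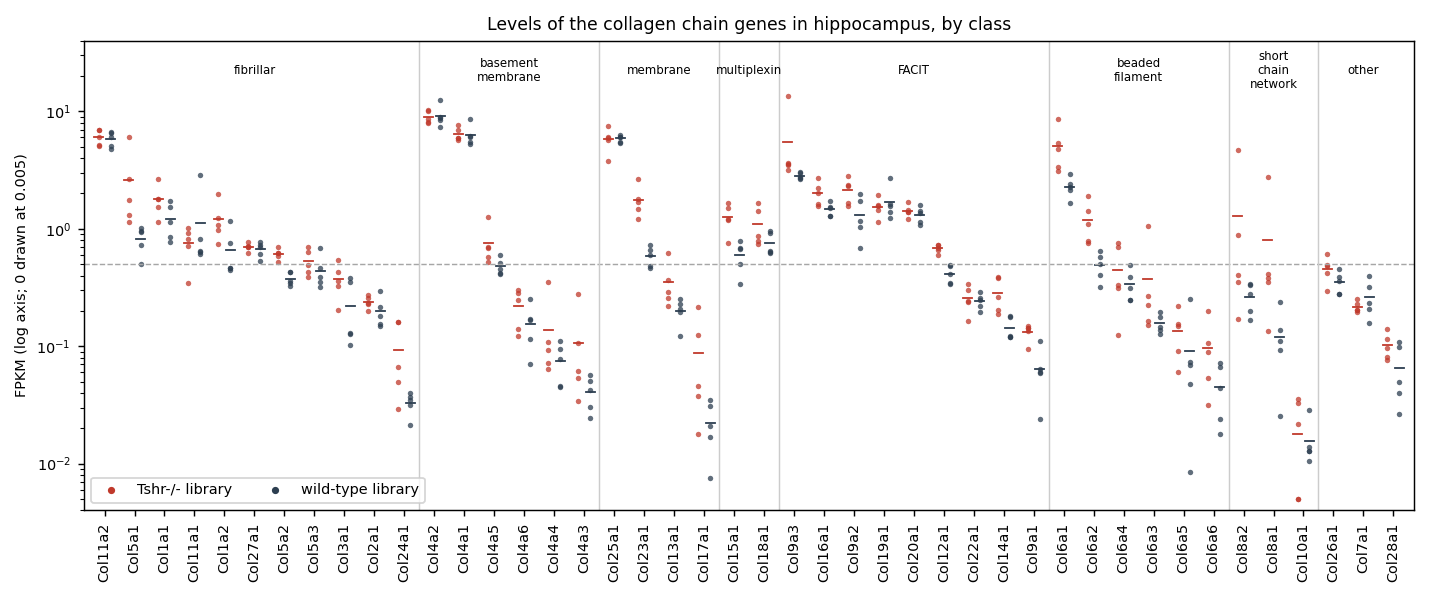
FPKM of the 44 collagen chain genes on a log axis, with 1 point per library, Tshr-/- in red left of wild type in dark blue, and a bar at each mean. The dashed line marks a level of 0.5 FPKM, and Col4a2 and Col4a1 stand highest in both genotypes.

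Each gene was tested with limma on log2(FPKM + 0.1) over all 15471 genes with a mean of at least 0.5 FPKM, with Benjamini-Hochberg adjustment and a threshold of 0.05. Differences are Tshr-/- minus wild type on this scale, which understates the change of low genes. Of the 22 measured chain genes, 0 passed the adjusted threshold, where the share over all tested genes was 0.0129%. At an unadjusted limma p below 0.05, 9 chain genes were higher in Tshr-/- and 0 were lower, while over all tested genes 4.65% were higher and 8.38% lower. In all, 18 of the 22 were higher in Tshr-/- at any size of difference (background 46.7%) and 4 lower. The median log2 difference was 0.52 over the 22 measured chain genes and -0.01 over all tested genes. Tshr-/- and wild-type libraries did not overlap for 6 of the 22, each with Tshr-/- higher (background 0.911%), and 0 of the 22 were separated with Tshr-/- lower (background 1.76%). The 6 were Col23a1, Col5a1, Col6a1, Col6a2, Col9a3 and Col12a1.

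The filter on low values bears on these counts, because 4 of the measured genes had a wild-type mean below 0.5 FPKM and passed through their level in Tshr-/-. They were Col6a2, Col12a1, Col4a5 and Col8a2, and Col6a2 and Col12a1 are among the 6 separated genes. With no filter, all 44 chain genes entered a fit over 34046 genes, 39 were higher (background 51.9%) and 5 lower in Tshr-/-, and the median log2 difference was 0.44, against 0.01 over all genes of that fit. There, limma gave 15 of the 44 an unadjusted p below 0.05 as higher (background 4.02%) and 0 as lower (background 4.93%), and 0 passed the adjusted threshold (background 0.0117%). Of the 44, 8 were separated with Tshr-/- higher (background 0.79%), namely the 6 above, Col5a2 and Col14a1, and 0 were separated with Tshr-/- lower (background 0.969%). In bulk tissue, more cells of a type and more RNA per cell cannot be told apart.

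Among membrane collagens, Col23a1 (ENSMUSG00000063564, chromosome 11, 51289920 to 51583918, plus strand, mm10) was higher in Tshr-/- and missed the adjusted threshold narrowly. It encodes a transmembrane collagen whose ectodomain can be shed. Tshr-/- libraries 1 to 5 had 1.69, 1.21, 1.48, 1.81 and 2.67 FPKM, against 0.478, 0.658, 0.600, 0.464 and 0.728 FPKM in wild-type libraries 1 to 5. Every Tshr-/- library lay above every wild-type library, and Tshr-/- library 5 was the highest. The means were 1.77 ± 0.552 FPKM in Tshr-/- and 0.586 ± 0.114 FPKM in wild type (SD, n = 5 each), from 1413 reads in Tshr-/- and 460 in wild type. The log2 difference was 1.42 ± 0.20 (SE, limma adjusted p = 0.0502), a 2.67-fold higher level on this scale with a 95% interval of the log2 difference from 0.98 to 1.86. An exact permutation test of the mean FPKM gave a two-sided p of 0.00794, the smallest that 5 against 5 libraries allow, which the full separation of the libraries fixes and which adds nothing to it. With Tshr-/- library 4 left out the log2 difference was 1.40 (limma adjusted p = 0.0828).

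Of 4 membrane collagens 2 were measured, 1 higher and 1 lower in Tshr-/-. With no filter, 3 of the 4 were higher (background 51.9%). The other measured membrane collagen, Col25a1, gave a different picture. Col25a1 is made by neurons, and in humans its shed part was found in amyloid plaques. Its levels were 5.71, 7.57, 6.02, 5.99 and 3.79 FPKM in Tshr-/- libraries 1 to 5, against 5.53, 6.11, 5.38, 6.36 and 6.05 FPKM in wild-type libraries 1 to 5. The Tshr-/- libraries held both the highest and the lowest value. The log2 difference was -0.05 with a 95% interval from -0.37 to 0.28 (limma adjusted p = 0.918), and without Tshr-/- library 5 it was 0.10. Col13a1, a collagen of the neuromuscular junction, and Col17a1, a collagen of skin hemidesmosomes, were below the filter. Col13a1 averaged 0.350 ± 0.158 FPKM in Tshr-/- and 0.201 ± 0.0490 FPKM in wild type, and Col17a1 0.0878 ± 0.0811 FPKM in Tshr-/- and 0.0223 ± 0.0109 FPKM in wild type (SD, n = 5 each). In both genes Tshr-/- library 4 was the highest library.

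**Figure D2:**
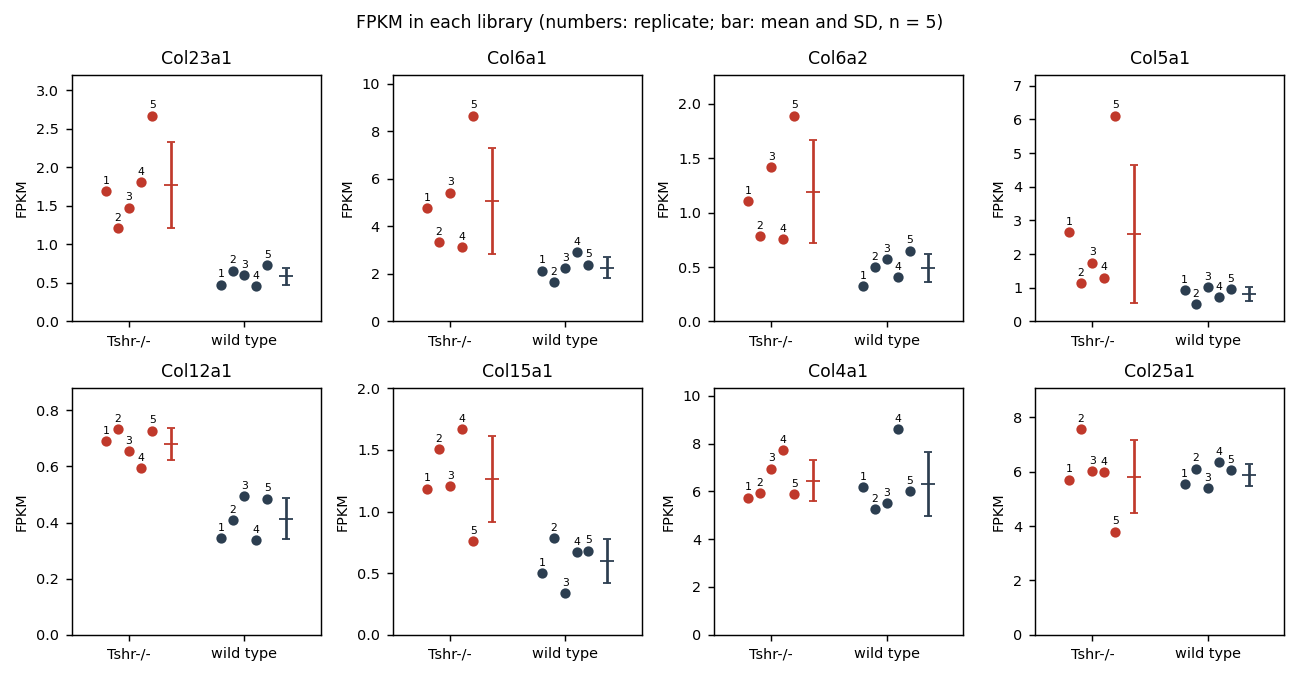
FPKM in each library for 8 chain genes, with the replicate number above each point, Tshr-/- left of wild type, and the mean with its SD (n = 5) beside the points. Col23a1, Col6a1, Col6a2, Col5a1 and Col12a1 do not overlap between the genotypes, while Col15a1, Col4a1 and Col25a1 do.

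Of 11 fibrillar genes, 6 were measured, 5 of them higher (background 46.7%) and 1 lower in Tshr-/-, with a median log2 difference of 0.31. At an unadjusted limma p below 0.05, 2 were higher (background 4.65%) and 0 lower (background 8.38%), and 0 passed the adjusted threshold. With no filter, 10 of the 11 were higher (background 51.9%), with a median log2 difference of 0.48. There, 4 were higher at an unadjusted limma p below 0.05 (background 4.02%) and 2 were separated with Tshr-/- higher (background 0.79%).

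Col5a1 encodes the main chain of type V collagen, which starts the assembly of type I fibrils. It had 2.65, 1.14, 1.75, 1.30 and 6.11 FPKM in Tshr-/- libraries 1 to 5, against 0.930, 0.504, 1.01, 0.721 and 0.960 FPKM in wild-type libraries 1 to 5. The genotypes did not overlap, and Tshr-/- library 5 stood far above the other Tshr-/- libraries. On the log2 scale the difference was 1.30 ± 0.39 (SE, limma adjusted p = 0.231), and 1.47 with Tshr-/- library 4 left out (limma adjusted p = 0.198). With Tshr-/- library 5 left out it fell to 0.93 (limma adjusted p = 0.233). Col5a2, its partner chain, lay just below the filter at 0.523 to 0.705 FPKM in Tshr-/- and 0.327 to 0.431 FPKM in wild type. It also did not overlap, and in the fit with no filter its log2 difference was 0.58 (limma adjusted p = 0.303).

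Col1a2 and Col1a1, the chains of type I collagen, followed another order of libraries. Col1a2 had 0.984, 1.22, 1.08, 1.98 and 0.744 FPKM in Tshr-/- libraries 1 to 5, against 0.447, 0.756, 0.463, 0.467 and 1.18 FPKM in wild-type libraries 1 to 5. Col1a1 had 1.54, 1.78, 1.80, 2.64 and 1.15 FPKM in Tshr-/- libraries 1 to 5, against 0.846, 1.52, 0.770, 1.14 and 1.73 FPKM in wild-type libraries 1 to 5. In both genes Tshr-/- library 4 was highest, Tshr-/- library 5 was lowest of its genotype, wild-type libraries 2 and 5 were high within theirs, and the genotypes overlapped. The log2 difference was 0.79 for Col1a2 (limma adjusted p = 0.304) and 0.55 for Col1a1 (limma adjusted p = 0.384). They were 0.61 and 0.40 when Tshr-/- library 4 was left out (limma adjusted p = 0.387 and 0.495). Col3a1, the type III chain of the same tissues, was below the filter at 0.202 to 0.544 FPKM in Tshr-/- and 0.103 to 0.380 FPKM in wild type, with the same highest library.

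Col11a2 and Col11a1 encode chains of type XI collagen, known from cartilage. Col11a2, the highest fibrillar gene, had 5.05, 5.21, 6.88, 6.92 and 6.04 FPKM in Tshr-/- libraries 1 to 5, against 6.00, 4.82, 6.54, 6.74 and 5.10 FPKM in wild-type libraries 1 to 5. The groups overlapped throughout, with a log2 difference of 0.04 and a 95% interval from -0.23 to 0.31. Col11a1 had 0.826, 0.720, 0.921, 1.01 and 0.343 FPKM in Tshr-/- libraries 1 to 5, against 0.648, 0.817, 0.609, 2.88 and 0.630 FPKM in wild-type libraries 1 to 5. A single high library, wild type 4, set its log2 difference of -0.29 (limma adjusted p = 0.796), which was 0.10 without that library. Col27a1, a fibrillar collagen of cartilage, lay at 0.627 to 0.774 FPKM in Tshr-/- and 0.530 to 0.774 FPKM in wild type. Col5a3, Col2a1 and Col24a1 were below the filter, and their Tshr-/- and wild-type ranges overlapped. For Col24a1 the overlap rested on Tshr-/- library 4, at 0.0294 FPKM, while the other Tshr-/- libraries had 0.0498 to 0.161 FPKM and the wild-type libraries 0.0214 to 0.0400 FPKM.

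The type IV chains of the vessel wall, Col4a1 and Col4a2, overlapped between the genotypes throughout. Of 6 type IV genes 3 were measured, 2 of them higher (background 46.7%) and 1 lower in Tshr-/-. Their median log2 difference was 0.04, and 0 had an unadjusted limma p below 0.05. With no filter, 5 of the 6 were higher (background 51.9%) and the median was 0.34. There, 1 was higher at an unadjusted limma p below 0.05 (background 4.02%). Col4a2 had 8.10, 7.89, 10.3, 10.1 and 8.63 FPKM in Tshr-/- libraries 1 to 5, against 8.37, 7.32, 8.95, 12.6 and 8.71 FPKM in wild-type libraries 1 to 5. Col4a1 had 5.74, 5.94, 6.96, 7.72 and 5.88 FPKM in Tshr-/- libraries 1 to 5, against 6.18, 5.25, 5.52, 8.62 and 6.01 FPKM in wild-type libraries 1 to 5. Wild-type library 4 was highest and wild-type library 2 lowest for both chains. The log2 difference was -0.01 for Col4a2, with a 95% interval from -0.31 to 0.28, and 0.04 for Col4a1, with an interval from -0.25 to 0.34. Col4a1 without Tshr-/- library 4 had a log2 difference of -0.02.

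The type IV genes lie in head-to-head pairs on the genome. Col4a1 and Col4a2 overlap by 22 bases at their starts on chromosome 8, Col4a4 and Col4a3 lie 71 bases apart on chromosome 1, and Col4a6 and Col4a5 lie 1308 bases apart on the X chromosome. The labels do not say whether counting used the strand, so reads in the overlap cannot be assigned, and it covers 0.332% of the exonic bases of Col4a2 and 0.295% of those of Col4a1. Col4a5 had 0.705, 0.693, 0.571, 1.27 and 0.521 FPKM in Tshr-/- libraries 1 to 5, against 0.457, 0.421, 0.415, 0.516 and 0.604 FPKM in wild-type libraries 1 to 5. Tshr-/- library 4 stood apart, and the log2 difference was 0.50 (limma adjusted p = 0.384) with that library and 0.31 without it. Col4a3 and Col4a4, which join Col4a5 in the basement membrane of the kidney glomerulus, were below the filter and were 4.35 and 4.21 times as high in Tshr-/- library 4 as in the mean of the other 4 Tshr-/- libraries.

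Multiplexins, collagens of the basement membrane zone with an end piece that is cut off, summed to 2.36 ± 0.746 FPKM in Tshr-/- and 1.35 ± 0.314 FPKM in wild type (SD, n = 5 each). Col15a1 had 1.19, 1.51, 1.21, 1.67 and 0.762 FPKM in Tshr-/- libraries 1 to 5, against 0.499, 0.787, 0.336, 0.673 and 0.683 FPKM in wild-type libraries 1 to 5. Tshr-/- library 5 lay below wild-type library 2, the other 4 Tshr-/- libraries lay above every wild-type library, and the log2 difference was 0.98 ± 0.24 (SE, limma adjusted p = 0.176). Leaving out Tshr-/- library 4 gave 0.87 (limma adjusted p = 0.198). Col18a1, from which endostatin is cut, had 0.791, 1.43, 0.860, 1.65 and 0.736 FPKM in Tshr-/- libraries 1 to 5, against 0.618, 0.919, 0.652, 0.637 and 0.949 FPKM in wild-type libraries 1 to 5. Its groups overlapped, with a log2 difference of 0.43 (limma adjusted p = 0.460), and of 0.28 without Tshr-/- library 4 (limma adjusted p = 0.611). The difference between multiplexins and type IV chains was not tested.

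**Figure D3:**
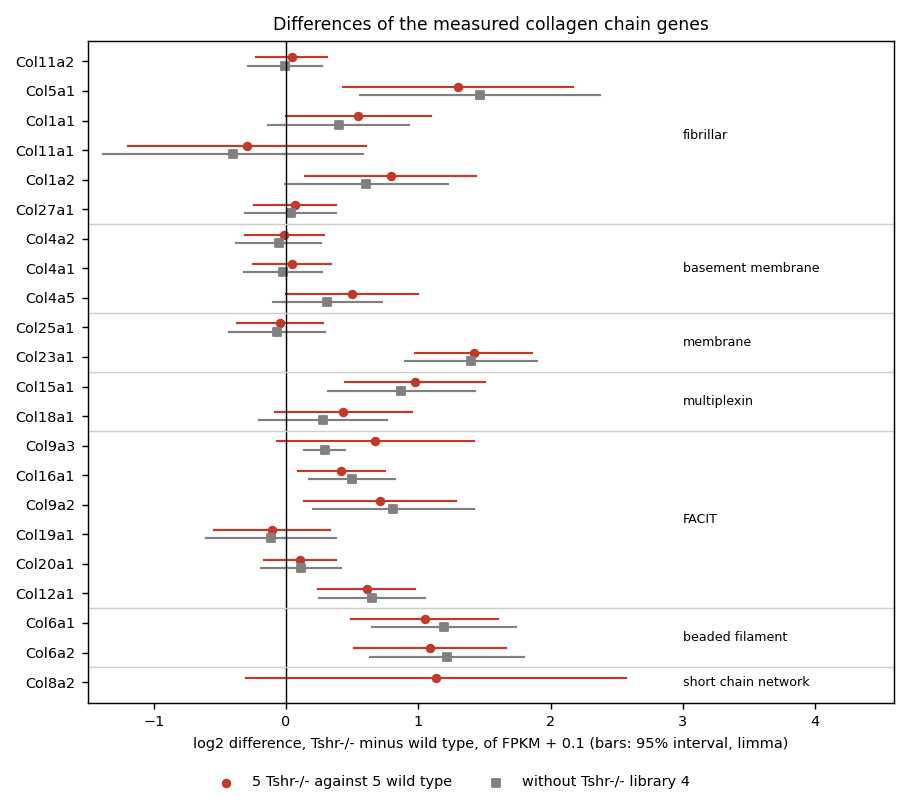
Log2 difference (Tshr-/- minus wild type, FPKM + 0.1) with its 95% interval for the 22 measured chain genes by class, from all libraries in red and without Tshr-/- library 4 in grey. Col23a1, Col5a1, Col6a1 and Col6a2 lie above 1 with and without that library, while Col4a1, Col4a2, Col11a2 and Col25a1 lie near 0. Without Tshr-/- library 5, which is not drawn, the values were 1.26 for Col23a1, 0.93 for Col5a1, 0.83 for Col6a1 and 0.91 for Col6a2. Col8a2 has no grey point because its mean fell below 0.5 FPKM.

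Type VI collagen forms beaded filaments around cells. Of 6 genes of this class 2 were measured. These, Col6a1 and Col6a2, were higher in Tshr-/- without overlap (background 0.911%), and Col6a2 passed the filter only through its Tshr-/- level. With no filter, all 6 genes were higher (background 51.9%), with a median log2 difference of 0.51. There, 2 were higher at an unadjusted limma p below 0.05 (background 4.02%). Col6a1 and Col6a2 lie next to each other on chromosome 10, with 85161 bases and no protein-coding gene between them. Col6a1 had 4.78, 3.34, 5.41, 3.13 and 8.65 FPKM in Tshr-/- libraries 1 to 5, against 2.14, 1.65, 2.25, 2.91 and 2.39 FPKM in wild-type libraries 1 to 5. Col6a2 had 1.11, 0.787, 1.42, 0.753 and 1.89 FPKM in Tshr-/- libraries 1 to 5, against 0.321, 0.497, 0.570, 0.407 and 0.651 FPKM in wild-type libraries 1 to 5. Both chains ranked the Tshr-/- libraries alike, with library 5 highest and library 4 lowest. The log2 difference was 1.05 ± 0.25 for Col6a1 and 1.09 ± 0.26 for Col6a2 (SE, limma adjusted p = 0.176 and 0.175). They were 1.19 and 1.22 when Tshr-/- library 4 was left out (limma adjusted p = 0.132 and 0.143). Leaving out Tshr-/- library 5 instead gave 0.83 and 0.91 (limma adjusted p = 0.182 and 0.221). Col6a3, the chain that completes the filament, had another order of libraries. It was below the filter, at 1.06 FPKM in Tshr-/- library 4, 0.152 to 0.270 FPKM in the other Tshr-/- libraries and 0.128 to 0.195 FPKM in wild type. Col6a4, Col6a5 and Col6a6 were below the filter and overlapped between the genotypes.

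FACIT collagens attach to fibrils rather than form them. Of 9 genes 6 were measured, 5 higher (background 46.7%) and 1 lower in Tshr-/-, with a median log2 difference of 0.51. Limma gave 3 an unadjusted p below 0.05 as higher (background 4.65%) and 0 as lower (background 8.38%). With no filter, 8 of the 9 were higher (background 51.9%), with a median log2 difference of 0.52. There, 5 were higher at an unadjusted limma p below 0.05 (background 4.02%). Col12a1, which binds type I fibrils, had 0.689, 0.734, 0.654, 0.593 and 0.728 FPKM in Tshr-/- libraries 1 to 5, against 0.345, 0.408, 0.495, 0.339 and 0.485 FPKM in wild-type libraries 1 to 5. Its groups were narrow and did not overlap, and they differed by 0.61 ± 0.17 on the log2 scale (SE, limma adjusted p = 0.200). Col16a1 had 2.03, 2.69, 1.62, 1.57 and 2.21 FPKM in Tshr-/- libraries 1 to 5, against 1.29, 1.54, 1.73, 1.30 and 1.49 FPKM in wild-type libraries 1 to 5. Wild-type library 3 lay above Tshr-/- libraries 3 and 4, and the log2 difference was 0.42 (limma adjusted p = 0.286).

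Type IX collagen, made of the chains Col9a1, Col9a2 and Col9a3, coats cartilage fibrils. Col9a3 had 3.51, 3.65, 3.19, 13.5 and 3.57 FPKM in Tshr-/- libraries 1 to 5, against 2.72, 2.63, 3.08, 2.75 and 2.96 FPKM in wild-type libraries 1 to 5. The groups did not overlap, but Tshr-/- library 4 was 3.87 times the mean of the other 4 Tshr-/- libraries. With that library the log2 difference was 0.68 (limma adjusted p = 0.421), and without it 0.29 (limma adjusted p = 0.165). Exons of Col9a3 share 6.07% of their bases with Tcfl5 on the opposite strand. Col9a2 averaged 2.15 ± 0.529 FPKM in Tshr-/- and 1.32 ± 0.526 FPKM in wild type (SD, n = 5 each), with a log2 difference of 0.71 (limma adjusted p = 0.301). Col19a1, which in mouse hippocampus is made by interneurons, averaged 1.54 ± 0.296 FPKM in Tshr-/- and 1.70 ± 0.576 FPKM in wild type. Its log2 difference was -0.11, and 0.07 without wild-type library 4. Col20a1 lay at 1.21 to 1.68 FPKM in Tshr-/- and 1.09 to 1.60 FPKM in wild type, and the genotypes overlapped. Col14a1, below the filter, lay at 0.190 to 0.389 FPKM in Tshr-/- and 0.119 to 0.180 FPKM in wild type, without overlap.

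Short-chain network collagens include Col8a1 and Col8a2 of vessels and the cornea, both of which stood far highest in Tshr-/- library 4. Col8a2 had 0.402, 0.893, 0.169, 4.66 and 0.354 FPKM in Tshr-/- libraries 1 to 5, against 0.167, 0.278, 0.340, 0.197 and 0.331 FPKM in wild-type libraries 1 to 5. Col8a1 had 0.380, 0.352, 0.134, 2.77 and 0.410 FPKM in Tshr-/- libraries 1 to 5, against 0.0256, 0.0932, 0.136, 0.110 and 0.236 FPKM in wild-type libraries 1 to 5. In Tshr-/- library 4 they were 10.2 and 8.68 times the mean of the other 4 Tshr-/- libraries. Col8a2 had a log2 difference of 1.13 with a 95% interval from -0.30 to 2.57 (limma adjusted p = 0.484), and of 0.48 when Tshr-/- library 4 was left out and the same genes were tested (limma adjusted p = 0.625). Col8a1 without that library averaged 0.319 FPKM in Tshr-/- and 0.120 FPKM in wild type, and 3 of the 4 remaining Tshr-/- libraries lay above every wild-type library. Of the remaining genes, Col26a1 averaged 0.459 ± 0.115 FPKM in Tshr-/- and 0.352 ± 0.0749 FPKM in wild type, Col28a1 0.102 ± 0.0260 FPKM in Tshr-/- and 0.0647 ± 0.0367 FPKM in wild type, and Col7a1, the anchoring fibril collagen of skin, 0.217 ± 0.0229 FPKM in Tshr-/- and 0.263 ± 0.0951 FPKM in wild type (SD, n = 5 each).

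The chain genes differed in which library was highest. Of the 44 genes, 20 had their highest value in Tshr-/- library 4, 8 in Tshr-/- library 2, 6 in Tshr-/- library 5 and 6 in wild-type library 4. The share of all genes that were highest in each library was not determined, so these counts have no background. Without Tshr-/- library 4, 21 genes were measured, 15 higher (background 46.4%) and 6 lower in Tshr-/-, with a median log2 difference of 0.31, against -0.01 over the 15421 genes then tested. Limma again gave 9 an unadjusted p below 0.05 as higher (background 5.13%) and 0 as lower (background 8.0%), with 0 past the adjusted threshold (background 0.013%). The separated genes were again 6, all higher in Tshr-/- (background 1.79%), and 0 were separated with Tshr-/- lower (background 2.63%). Those 9 no longer included Col1a2 and now included Col9a3.

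**Figure D4:**
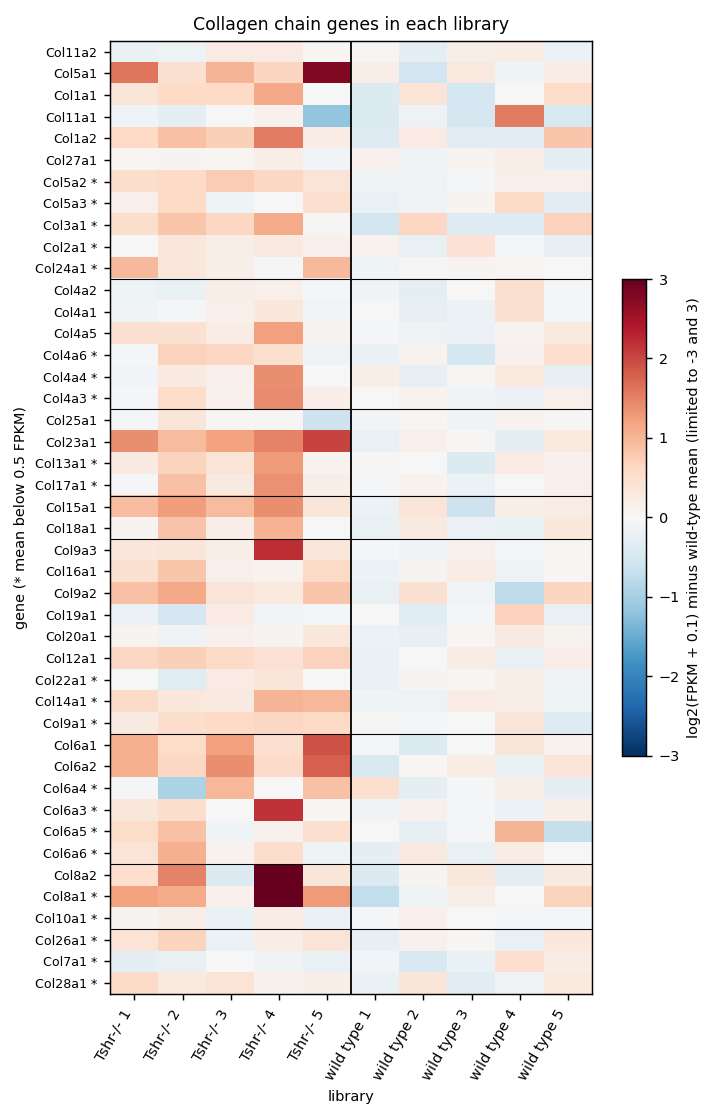
Log2(FPKM + 0.1) of each chain gene in each library minus the wild-type mean of that gene, grouped by class, with Tshr-/- libraries left of wild-type libraries. Tshr-/- library 4 is highest for Col8a1, Col8a2, Col9a3 and Col6a3, and Tshr-/- library 5 for Col5a1, Col6a1, Col6a2 and Col23a1. A star marks genes whose mean lies below 0.5 FPKM.

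Some of these genes were highest in the same library as markers of neighbouring tissue. Choroid plexus markers, 13 genes, summed to 2285 FPKM in Tshr-/- library 4, to 7.03 to 59.7 FPKM in the other Tshr-/- libraries and to 5.34 to 91.9 FPKM in wild type. Their main product Ttr stood at 2189 FPKM in Tshr-/- library 4, the library that was highest for Col8a1, Col8a2, Col9a3, Col6a3, Col4a3 and Col4a4. Wild-type library 5 had the next highest choroid plexus sum (91.9 FPKM). It was the highest wild-type library for Col8a1, Col6a3 and Col4a3, but not for Col8a2, Col9a3 and Col4a4. Meningeal and fibroblast markers, 18 genes with no collagen among them, summed to 38.3 to 107 FPKM in Tshr-/- (38.3 to 53.7 FPKM without library 4) and 29.8 to 53.1 FPKM in wild type, and 14 of the 15 measured were higher in Tshr-/- (background 46.7%), 6 of them at an unadjusted limma p below 0.05 (background 4.65%). Tshr-/- library 4 was highest for these too, and wild-type libraries 2 and 5 were the highest of wild type, as for Col1a1, Col1a2 and Col3a1. Tshr-/- library 5, the highest for Col5a1, Col6a1, Col6a2 and Col23a1, was the lowest Tshr-/- library in meningeal markers and was highest of all in 9 neocortex markers, at 91.5 FPKM against 38.8 to 58.8 FPKM in the other Tshr-/- libraries and 46.5 to 69.2 FPKM in wild type. Wild-type libraries 1 and 3 had the next highest neocortex sums (68.0 and 69.2 FPKM). Within wild type, library 3 was highest for Col5a1, library 4 for Col6a1 and library 5 for Col6a2 and Col23a1. That all wild-type libraries lay below every Tshr-/- library in these genes follows from their choice as separated genes. Of the defining markers, Kcne2 and Kcnj13 of the choroid plexus were each at 0 in a single wild-type library (1 and 3 in turn). The meningeal marker Slc47a1 was at 0 in wild-type library 2, and Slc22a2 in wild-type libraries 3 and 4. The part of these tissues in the collagen differences was not tested.

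Vessel cells gave other values. Endothelial markers, 12 genes, summed to 77.6 to 105 FPKM in Tshr-/- and 86.6 to 110 FPKM in wild type. In Tshr-/-, 8 were higher (background 46.7%) and 4 lower, with 1 lower at an unadjusted limma p below 0.05 (background 8.38%). Mural cell markers, 11 genes, summed to 63.6 to 77.0 FPKM in Tshr-/- and 61.6 to 88.6 FPKM in wild type, with 4 of 9 measured higher (background 46.7%) and 5 lower. Ependymal markers, 10 genes, summed to 8.43 to 29.8 FPKM in Tshr-/- and 7.51 to 15.3 FPKM in wild type. Of these, 7 of 7 measured were higher (background 46.7%), 2 of them at an unadjusted limma p below 0.05 (background 4.65%). Thalamus and habenula markers, 15 genes, summed to 40.5 to 266 FPKM in Tshr-/- and 17.3 to 124 FPKM in wild type. All 14 measured were higher (background 46.7%), 1 of them at an unadjusted limma p below 0.05 (background 4.65%). Tshr-/- libraries 1 and 2 had the highest sums (143 and 266 FPKM). Tshr-/- libraries 3 to 5, at 40.5 to 48.3 FPKM, lay below wild-type libraries 2 and 5 (88.0 and 124 FPKM). Oligodendrocyte precursor markers, 7 genes, summed to 57.3 to 71.6 FPKM in Tshr-/- and 61.4 to 87.6 FPKM in wild type. Of these, 2 were higher (background 46.7%) and 5 lower, with 2 lower at an unadjusted limma p below 0.05 (background 8.38%). All 10 markers of hippocampal neurons had values above 0 in the libraries, at a sum of 257 to 387 FPKM in Tshr-/- and 366 to 516 FPKM in wild type, and all 10 were lower in Tshr-/-, 9 of them at an unadjusted limma p below 0.05 (background 8.38%).

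**Figure D5:**
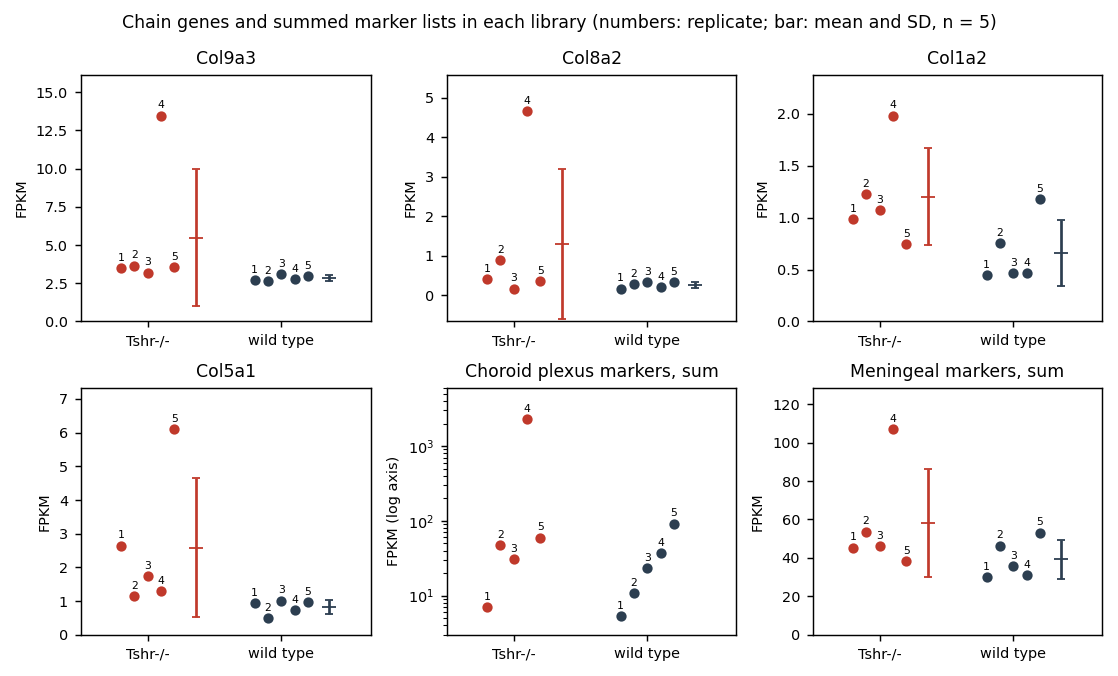
FPKM of 4 chain genes and the summed FPKM of choroid plexus markers (log axis) and meningeal markers in each library, Tshr-/- left of wild type, with replicate numbers and, on linear axes, the mean and SD (n = 5). Col9a3, Col8a2, Col1a2 and both marker sums are highest in Tshr-/- library 4, whereas Col5a1 is highest in Tshr-/- library 5.

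Genes of collagen synthesis and processing were spread over both directions. Of 30 genes of synthesis and processing, 26 were measured, 14 higher (background 46.7%) and 12 lower in Tshr-/-. Their median log2 difference was 0.00, and 0 passed the adjusted threshold. At an unadjusted limma p below 0.05, 0 were higher (background 4.65%) and 2 were lower (background 8.38%, so that the count is near the background). P4ha1, the catalytic chain of the prolyl hydroxylase that stabilises the collagen helix, had 12.1, 11.2, 12.9, 12.9 and 10.7 FPKM in Tshr-/- libraries 1 to 5, against 15.5, 14.4, 15.7, 16.1 and 15.8 FPKM in wild-type libraries 1 to 5. Every Tshr-/- library lay below every wild-type library (background 1.76%), opposite in direction to the separated chain genes. The difference of P4ha1 was -0.37 ± 0.06 on the log2 scale (SE, limma adjusted p = 0.0709). Plod1, a lysyl hydroxylase, averaged 3.95 ± 0.470 FPKM in Tshr-/- and 4.68 ± 0.334 FPKM in wild type (limma adjusted p = 0.269). Pcolce, which enhances procollagen cleavage, averaged 2.58 ± 1.65 FPKM in Tshr-/- and 1.41 ± 0.475 FPKM in wild type (log2 difference 0.71, limma adjusted p = 0.394), and the difference was 0.40 without Tshr-/- library 4.

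Of 11 collagen receptors 8 were measured, 6 higher (background 46.7%) and 2 lower, with 1 higher at an unadjusted limma p below 0.05 (background 4.65%). That gene was Mrc2, which takes up collagen for breakdown, at 1.06 to 1.81 FPKM in Tshr-/- and 0.504 to 1.02 FPKM in wild type. Its groups did not overlap (background 0.911%), with a log2 difference of 0.72 (limma adjusted p = 0.226). The integrin chains Itga11 and Itgb1 averaged 0.770 ± 0.0861 and 13.3 ± 1.14 FPKM in Tshr-/- and 1.03 ± 0.294 and 12.2 ± 1.63 FPKM in wild type. Of 18 other basement membrane proteins 14 were measured, 10 higher (background 46.7%) and 4 lower, with 1 higher at an unadjusted limma p below 0.05 (background 4.65%). It was the linker Nid1, at 1.55 ± 0.239 FPKM in Tshr-/- and 1.15 ± 0.263 FPKM in wild type (limma adjusted p = 0.317). Smoc1 and Smoc2 averaged 2.97 ± 0.481 and 9.43 ± 2.93 FPKM in Tshr-/- and 2.41 ± 0.416 and 11.8 ± 1.55 FPKM in wild type.

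Among 15 genes of collagen breakdown and its inhibitors, 12 were measured, 5 higher (background 46.7%) and 7 lower. At an unadjusted limma p below 0.05, 2 were higher (background 4.65%) and 2 lower (background 8.38%). The inhibitor Timp2 averaged 69.9 ± 16.0 FPKM in Tshr-/- and 49.5 ± 11.8 FPKM in wild type (limma adjusted p = 0.331). The inhibitor Timp4 averaged 5.17 ± 0.560 FPKM in Tshr-/- and 6.09 ± 0.412 FPKM in wild type (limma adjusted p = 0.266), and the metalloproteinase Mmp17 49.1 ± 10.4 FPKM in Tshr-/- and 67.0 ± 12.2 FPKM in wild type (limma adjusted p = 0.284). Of 9 collagen-binding proteoglycans 6 were measured, 5 higher (background 46.7%) and 1 lower, with 1 higher at an unadjusted limma p below 0.05 (background 4.65%). That gene, Fmod, averaged 1.70 ± 0.683 FPKM in Tshr-/- and 0.944 ± 0.579 FPKM in wild type (limma adjusted p = 0.341). Dcn averaged 3.66 ± 0.675 FPKM in Tshr-/- and 2.41 ± 1.32 FPKM in wild type, and Lum 1.30 ± 0.793 FPKM in Tshr-/- and 0.791 ± 0.215 FPKM in wild type. The log2 difference of Dcn was 0.78, and 0.43 without wild-type library 4. That of Lum was 0.51, 0.23 without Tshr-/- library 4 and 0.78 without Tshr-/- library 5. These 3 small proteoglycans are also on the meningeal marker list. None of the measured genes of the 5 pathway lists passed the adjusted threshold.

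Col4a3bp, which met the naming pattern without being a collagen, averaged 12.2 ± 1.14 FPKM in Tshr-/- and 12.1 ± 0.892 FPKM in wild type (SD, n = 5 each), with a log2 difference of 0.01 and a 95% interval from -0.15 to 0.18.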

How the data were processed

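Hippocampal RNA of 5 Tshr-/- and 5 wild-type libraries was sequenced. The authors deposited FPKM values for 52636 genes in the 10 libraries. The submitters' processing notes name HISAT2 2.0.5 (an aligner), featureCounts 1.5.0-p3 (a read counter) and the build mm10. The annotation release and use of strand are not given in the sources used here. Multiplying FPKM by gene length and dividing by the smallest step of the library rebuilt whole reads (100% of values within 0.01 read). Median-ratio factors of the deposited values were equal in all libraries, so that this scaling was already in them. Coordinates follow mm10 as deposited, and exon overlaps follow GENCODE vM21, whose start and end match the deposited ones for every chain gene except Col20a1.

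Tests used limma 3.58.1 in R 4.3.3 on log2(FPKM + 0.1) with a mean-variance trend, for genes with a mean of at least 0.5 FPKM, and were checked on simulated reads. The genes, classes, lists and tests were chosen with earlier results of these data known. Genes given with values per library are, by rule, those with the smallest p and the highest level in each class, Col23a1, and up to 3 of each pathway list. Others, such as Col5a2, Col8a1 and Col3a1, were named after their values were seen. Alternatives were other pseudocounts, filters and scalings, no trend, a table of protein-coding genes, a block for replicate number, limma voom on rebuilt reads, and each library left out.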

Additional observations from a re-analysis of the deposited data

Results flagged for a closer look

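In each of the 88 groups of 5 libraries formed by the 44 chain genes and both genotypes, the gap between an extreme library and the next was set against the range of the group (Dixon's critical value 0.710 at 95%). A library stood apart in 12 groups, and 6 of the 12 were Tshr-/- library 4. Chance flags about 1 group in 20 where groups are independent and values follow a normal distribution. These groups hold untransformed FPKM of the same 10 libraries, so that rate is no measure of chance here. That library was high for Col9a3 (13.5 FPKM), Col8a2 (4.66), Col8a1 (2.77), Col4a5 (1.27), Col6a3 (1.06) and Col4a4 (0.355), where the next Tshr-/- library had 3.65, 0.893, 0.410, 0.705, 0.270 and 0.109 FPKM. Choroid plexus markers summed to 2285 FPKM there. Wild-type library 4 was high for Col4a1 (8.62 FPKM), Col11a1 (2.88), Col19a1 (2.70) and Col6a5 (0.253), where the next wild-type library had 6.18, 0.817, 1.61 and 0.0728 FPKM. Tshr-/- library 1 was low for Col9a1 (0.0941 FPKM, the next 0.134), and wild-type library 2 was high for Col10a1 (0.0285 FPKM, the next 0.0139), both at few reads.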

How the results depend on the processing

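Of the measured chain genes, Col23a1 missed the threshold narrowly with all libraries, and it passed in 5 of 22 alternatives (adjusted p from 0.0291 to 0.143): pseudocount 0.01 (log2 difference 1.55, limma adjusted p = 0.0470), a mean of at least 1 FPKM (1.42, 0.0416), protein-coding genes alone (1.42, 0.0321), limma voom with summed reads as library size (1.63, 0.0291, chosen after seeing the data) and without Tshr-/- library 5 (1.26, 0.0453). Left-out libraries gave 1.26 to 1.54 (adjusted p from 0.0453 to 0.143), and limma voom with the authors' library sizes gave 1.56 (0.0513). The count of called chain genes was accordingly 1, 1 and 1 in the first 3 of these and 2 in the fourth, the other gene being Col12a1 (0.81, adjusted p = 0.0455), and 0 to 1 without single libraries. Median-ratio scaling, counted among the 22, could not change the fit, because that scaling was already in the values. Leaving out Tshr-/- library 4 with a new filter or over the same genes gave Col23a1 near-equal values (limma adjusted p = 0.0828 and 0.0823). The 2 genes called over the whole table became 14 with pseudocount 0.01, 4 with no filter, 13 at 1 FPKM, 4 with quantile normalization, 1 with no trend, 17 among protein-coding genes, 9 with voom on summed reads and 0 to 9 without single libraries. Median log2 differences of the classes rest on few genes. The fibrillar median of 0.31 was 0.55 at 1 FPKM, 0.48 with no filter, 0.19 with pseudocount 1 and 0.22 to 0.56 without single libraries. The basement membrane median of 0.04 was 0.34 with no filter and -0.023 to 0.16 without single libraries, with -0.023 over the same genes without Tshr-/- library 4. The membrane median of 0.69 is the midpoint of 2 genes that differ, Col23a1 at 1.42 and Col25a1 at -0.05, and describes neither. It was 0.37 with pseudocount 1, 0.53 with no filter, 0.83 with voom on summed reads and 0.65 to 0.73 without single libraries. Signs turned for genes with small differences and for Col11a1, whose log2 difference was -0.29 with all libraries. Without single libraries, Col4a2 ran from -0.087 to 0.11, Col4a1 from -0.023 to 0.16, Col11a2 from -0.022 to 0.10, Col11a1 from -0.42 to 0.10, Col19a1 from -0.20 to 0.066, Col25a1 from -0.15 to 0.10 and Col27a1 from -0.0026 to 0.12. Col4a2 was 0.010 with quantile normalization and 0.061 with voom on summed reads, which gave Col25a1 0.021, and Col27a1 was -0.031 with quantile normalization. Without Tshr-/- library 4 over the genes tested with it, Col4a1 was -0.023 and Col11a2 -0.0089. The causes were not tested. Replicate numbers recur in both genotypes, but same-numbered libraries deviated together in only 2 of 5 pairs (correlations from -0.07 to 0.30, a limit of 0.1), and 4 of the 10 libraries correlated best with their own number. With the replicate number as a block, 3 genes and 0 chain genes were called, and Col23a1 had an adjusted p of 0.0845. The 22 chain genes below 0.5 FPKM rest on 8 to 819 reads summed over the Tshr-/- libraries and 7 to 490 over the wild-type libraries.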
